A study of Mus musculus with 8 samples.

Results

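This report describes the major histocompatibility complex (MHC) class I presentation machinery in P14 CD8+ T cells that were stimulated in culture. It covers the heavy chain genes *H2-K1* and *H2-D1*, the light chain gene *B2m*, the peptide transporter genes *Tap1* and *Tap2*, the loading factor *Tapbp*, the immunoproteasome subunit genes *Psmb8*, *Psmb9* and *Psmb10*, and the transactivator *Nlrc5*. These 10 genes were taken by symbol from a table of 24303 genes, and all 10 were listed. The T cell receptor of P14 cells is a transgene that recognizes GP33, a peptide of the virus LCMV. The cells had a C57BL/6 background and came from spleens of uninfected mice of at least 8 weeks. All 4 conditions began with activation on anti-CD3 and anti-CD28 plates for 2 days, followed by medium with recombinant human IL-2 and IL-15. Effector cells were taken at day 7, and the labels do not state their peptide treatment up to that day. After activation Acute-2d cells saw no further GP33, Acute-7d cells were restimulated with GP33 up to day 7, and both were then held without peptide until day 19. T_Dysf cells, which the labels call Dysfunctional, were stimulated with GP33 repeatedly until day 19 with TGF-β1 from day 7. T_Dysf therefore differs from Acute-7d in both peptide and TGF-β1, and Effector differs from the other conditions in its day and from T_Dysf also in the later peptide and TGF-β1. Each condition had 2 libraries of sorted cells. The study calls the libraries of a condition biological replicates, but neither mice nor cultures are named for them. The p-values therefore measure the spread between libraries of a condition, pooled over all 4 conditions.

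MHC class I molecules show peptides from a cell's own proteins to CD8 T cells. Proteins are cut by the proteasome, and in lymphocytes and in cells exposed to interferon-γ the catalytic subunits encoded by *Psmb5*, *Psmb6* and *Psmb7* can be replaced by the immunoproteasome subunits of *Psmb8*, *Psmb9* and *Psmb10*. The peptides pass into the endoplasmic reticulum through the TAP transporter, where tapasin (*Tapbp*) holds the transporter next to empty class I molecules of a heavy chain and β2-microglobulin. NLRC5 drives transcription of many of these genes, and T cells are known for high levels of both NLRC5 and class I. It acts through a promoter module that holds an X box and a Y box, and interferon-response and kappa B elements lie near that module in the classical heavy chain genes.

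Promoter sequences of *H2-K1*, *H2-D1* and *B2m* are shown because they carry this module at 1 fixed spacing. The sequences are from RefSeq for GRCm38.p6, which holds windows of 250 bases before to 50 after the start site for 8 of the 10 genes, all but *Nlrc5* and *Tap2*. Each stretch is written 5′ to 3′ along its gene and ends before the RefSeq start site. The capitals mark, in order, GGGGATTCCCC (kappa B), TTTCNNTTC or GAAANNGAAA (2 forms of the interferon-response element), TGACG (the X box core) and ATTGG (the Y box core). Of *H2-D1* only the module itself is given, since GENCODE begins that gene further upstream and places the stretch in a UTR.
H2-K1, chr17:34000351-34000466, minus strand: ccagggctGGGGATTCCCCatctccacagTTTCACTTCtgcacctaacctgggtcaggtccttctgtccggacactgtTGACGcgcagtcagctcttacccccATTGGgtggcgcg
H2-D1, chr17:35262993-35263022, plus strand: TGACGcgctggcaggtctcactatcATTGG
B2m, chr2:122147540-122147646, plus strand: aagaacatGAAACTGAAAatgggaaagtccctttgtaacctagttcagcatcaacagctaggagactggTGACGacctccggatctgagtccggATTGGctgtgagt

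Aligned at TGACG without gaps, *H2-D1* was identical to the *H2-K1* stretch at 104 of 116 bases (89.7%). TGACG followed after 20 bases by ATTGG, written TGACGN20ATTGG, was found on either strand in 3 of the 8 windows (*H2-K1*, *H2-D1* and *B2m*) and in 31 of all 32851 promoter windows (0.0944%). This spacing and the kappa B letters were chosen after these sequences had been read, so their presence is a description. The single cores were common, with TGACG in 20.8% and ATTGG in 37.4% of all windows, on either strand. TTTCNNTTC was found in *H2-K1* and *H2-D1* and in 7.52% of all windows, GAAANNGAAA in *B2m* and in 3.44%, and GGGGATTCCCC in *H2-K1* and *H2-D1* and in 10 windows of the genome (0.0304%). Among 13 other class I heavy chain genes with a window, *H2-M3* also held TGACGN20ATTGG and *H2-Q6* held GGGGATTCCCC. TTTCNNTTC was found in 6 of these 13 genes and GAAANNGAAA in 2, so the interferon-response letters were not particular to the genes shown. TTTCNNTTC and GAAANNGAAA can overlap each other, and TGACGN20ATTGG contains both cores. *Tap1* and *Psmb9* held both cores at other spacings, *Tapbp* held only ATTGG, and *Psmb8* and *Psmb10* held none of these letters. A match of letters is not a binding site, and no data on binding were analysed here.

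**Figure D1:**
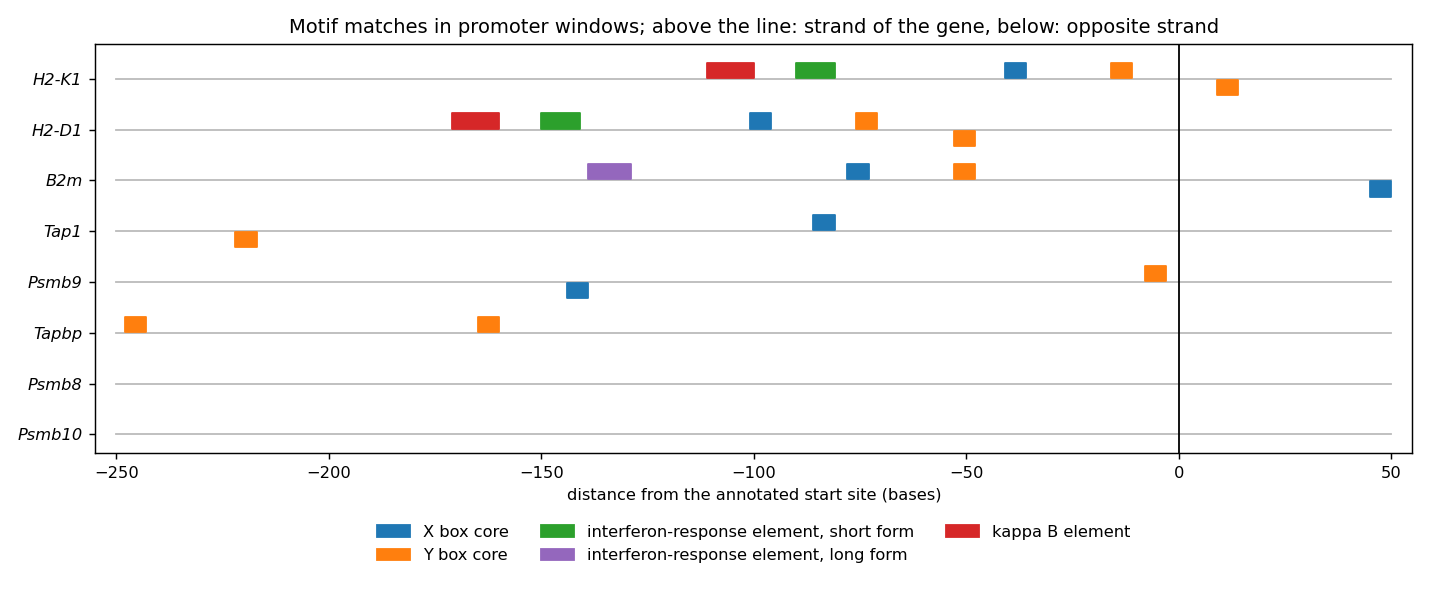
Positions of motif matches in the promoter windows of 8 genes, in bases from the RefSeq start site (0), with matches on the strand of the gene above each line and matches on the opposite strand below it. *H2-K1*, *H2-D1* and *B2m* each hold an X box core and a Y box core with 20 bases between them, and *Psmb8* and *Psmb10* hold no match; *H2-K1* has 2 annotated starts, of which the upstream one is drawn.

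*Psmb9*, *Tap1*, *Psmb8* and *Tap2* lie side by side within 34335 bases of chromosome 17 (34181987 to 34216321, GRCm38, GENCODE vM21). *Psmb9* and *Tap1* start in opposite directions. Their promoter windows share 275 bases, and their gene models overlap by 212 bases. *H2-K1* (17:33996017-34000347), *Tapbp* (17:33915899-33929292) and *H2-D1* (17:35262730-35267499) are on the same chromosome, *B2m* is at 2:122147686-122153083, and *Nlrc5* (8:94434356-94527272) and *Psmb10* (8:105935735-105938444) are on chromosome 8. Reads of the overlap of *Psmb9* and *Tap1* cannot be assigned to 1 gene unless strand was used in counting, which is not stated. Class I heavy chain genes are similar in sequence, so the split of reads between *H2-K1*, *H2-D1* and the H2-Q and H2-T genes is uncertain.

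The values are normalized counts, which are estimated read counts per gene divided by a size factor of the library. The depth was 19382147 to 24856195 reads on genes a library, and 1 read was worth between 0.863 and 1.12 normalized counts. The lowest value of any of the 10 genes was 2528 (*Psmb10*, Effector replicate 1), so depth did not limit their detection. Both Effector libraries and Acute-7d replicate 1 carry the prefix RESUB in their library names, whose meaning is not given. These 3 libraries had between 53.5 and 115 normalized counts of *Xist* and between 1334 and 2161 of the Y-linked *Ddx3y*, against between 21871 and 30427 of *Xist* and at most 2.59 of *Ddx3y* in the other 5, so that the 2 Acute-7d libraries differed from each other in these genes. The comparison of T_Dysf with Acute-2d lies within the 5 libraries without the prefix, but its p-values also use the spread of the other 3. The differences of Effector from T_Dysf and from Acute-2d cannot be told apart from the prefix and these sex-linked genes. Comparisons with Acute-7d are mixed, since its replicate 1 carries the prefix and its replicate 2 does not. A term for the prefix in a fit therefore rests on the difference between these 2 libraries. For T_Dysf against Acute-7d it gives the same fold changes as leaving out Acute-7d replicate 1, so these are not separate checks. For Effector against Acute-7d the same holds for leaving out replicate 2. The 9 markers of CD8 T cells were above 0 in every library and summed to between 192851 and 194209 in T_Dysf and between 87920 and 103747 in the other conditions. Not all of the 9 were higher in T_Dysf. Both T_Dysf libraries were above every other library for *Cd8a*, *Cd8b1*, *Cd3d*, *Cd3e*, *Cd3g* and *Thy1*. They were below every other library for *Cd2* (log2 fold change -1.31 against Acute-7d) and *Cd5* (-1.40). *Cd247* in T_Dysf overlapped Acute-2d and Effector. The sums of 5 myeloid markers (299.7 to 713), 4 erythroid markers (43.1 to 101) and 3 CD4 T cell markers (1043 to 1629) overlapped between T_Dysf and each acute condition, except that the myeloid sum was lower in T_Dysf (418 and 478) than in Acute-2d (514 and 713). The sum of 5 B cell markers was 153 and 168 in T_Dysf, above Acute-7d (55.8 and 68.7) and Acute-2d (109 and 116), and *Cd79b* passed against Acute-7d. The sum of 3 NK cell markers was 474 and 715 in T_Dysf, below Acute-7d (1107 and 1593) and above Acute-2d (431 and 472), where *Ncr1* was lower than in Acute-7d and *Klre1* higher than in Acute-2d. Of 4 dendritic cell markers the sum was between 3532 and 3730 in T_Dysf and between 410 and 1463 elsewhere, and *Itgax*, which activated CD8 T cells also express, made up between 3212 and 3306 of it in T_Dysf. The part of these cells in the values below was not tested.

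The 10 genes together made up 1.77% and 1.88% of all normalized counts in the 2 Acute-2d libraries, 1.66% and 1.61% in Acute-7d, 1.22% and 1.37% in T_Dysf, and 1.18% and 1.19% in Effector. The share was thus higher in each of the 4 rested libraries than in any T_Dysf or Effector library. *H2-K1* ranked between 3 and 8 among all genes. Acute-2d had the highest mean of 9 of the 10 genes, and Acute-7d that of *Nlrc5*. T_Dysf had the lowest mean of *Tap1*, *Tap2*, *Psmb8*, *Psmb9*, *Psmb10* and *Nlrc5*, and Effector that of *H2-K1*, *H2-D1*, *B2m* and *Tapbp*.

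**Figure D2:**
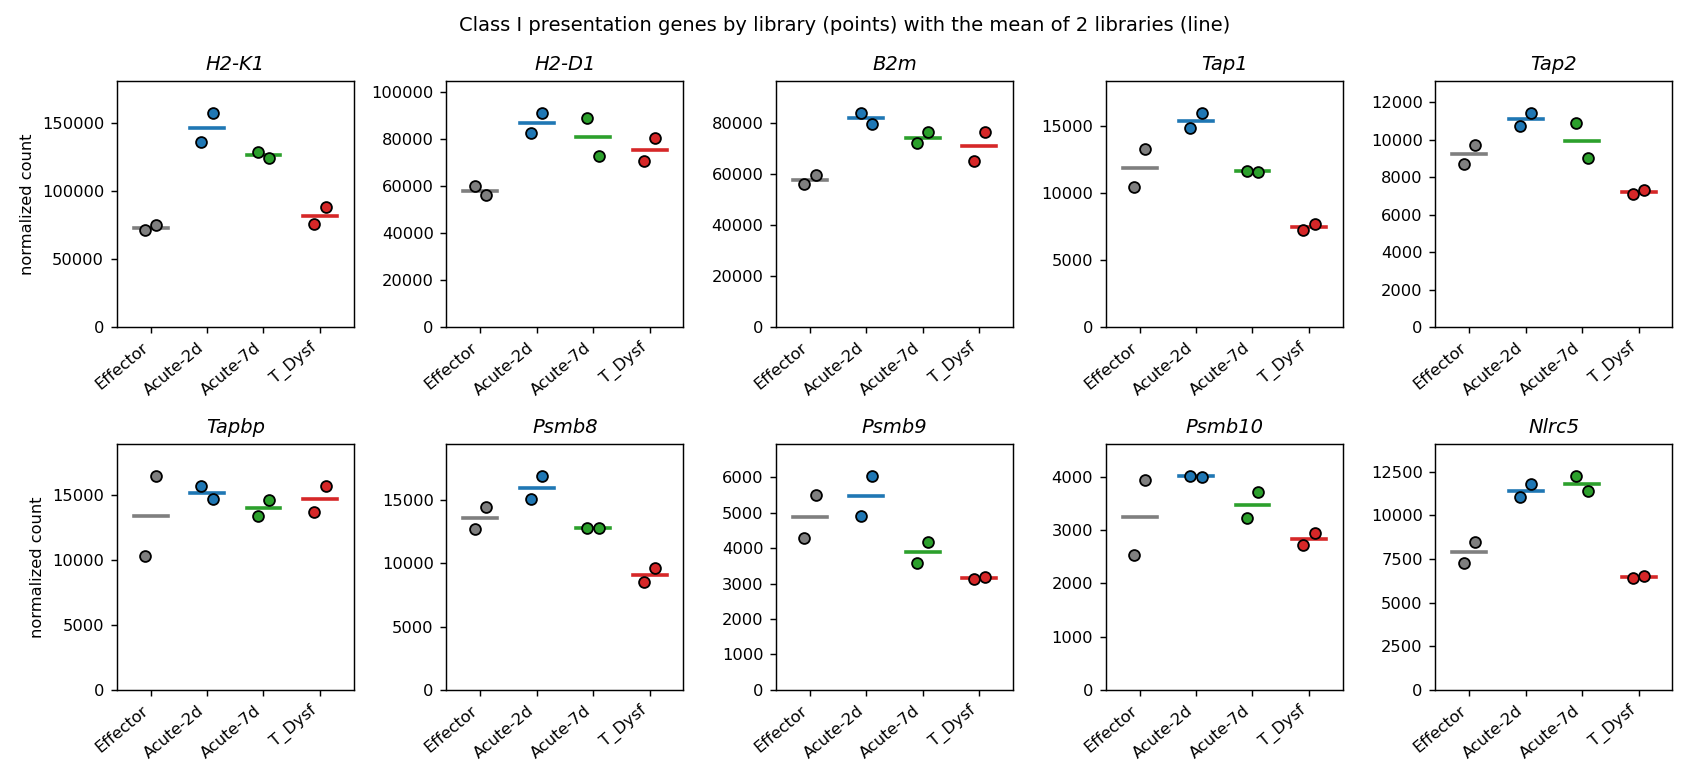
Normalized counts (each axis from 0) of the 10 genes in each library (points) and the mean of the 2 libraries (lines) for Effector, Acute-2d, Acute-7d and T_Dysf. *Tap1*, *Psmb8* and *Nlrc5* lie lower in both T_Dysf libraries than in every other library, while *H2-D1*, *B2m* and *Tapbp* in T_Dysf overlap Acute-7d.

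Log2(normalized count + 1) of the 8 libraries entered 1 fit of limma, whose moderated test gave p-values with Benjamini-Hochberg adjustment over all 24303 genes. A gene passed at an adjusted p under 0.05, and was a DEG if its fold change was also at least 2. Fold changes are given on the log2 scale with their standard error (SE). In any test of 1 gene between 2 conditions, exact permutation cannot give a p under 0.333. Lack of overlap between 2 conditions was common. Without overlap, 28.8% of all genes were lower in T_Dysf than in Acute-7d, 28.7% than in Acute-2d and 29.7% than in Effector. For Effector these shares were 28.6% against Acute-2d and 29% against Acute-7d. The share of genes below all other libraries at once was not counted. Over all 4 conditions, the moderated F test of the fit passed for 3 of the 10 genes (*Nlrc5*, adjusted p = 0.0149; *Tap1*, 0.0250; *Psmb8*, 0.0306), against 20.2% of all genes. Leaving out either T_Dysf library left 0 of the 10 past this F test, and leaving out any library of Acute-2d or Acute-7d left 1.

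The comparison of T_Dysf with Acute-2d asks how cells under continued peptide and TGF-β1 differed from cells that saw only the first activation. *Tap1*, *Tap2*, *Psmb8* and *Nlrc5* were lower in T_Dysf, 4 of the 10 genes, where 6.01% of all genes passed in the lower direction, and none of the 10 passed in the higher direction (5.85% of all genes). *Tap1* was the one DEG among them (7.35% of all genes). All 10 differences were negative, with a median of -0.70 against 0 over all genes. In bulk samples, lower RNA in every cell and fewer cells with the RNA cannot be told apart. The 4 calls were 0 without Acute-2d replicate 1, without Acute-2d replicate 2 or without T_Dysf replicate 1.

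Against Acute-7d, which shares peptide up to day 7 with T_Dysf, *Nlrc5* was lower in T_Dysf and was the only one of the 10 to pass, where 4.42% of all genes passed in the lower direction and 4.79% in the higher. Of the 10 differences 9 were negative, with a median of -0.37. *Tap1* (adjusted p = 0.0506), *Psmb8* (0.0643) and *Tap2* (0.0861) did not pass limma's test. The call of *Nlrc5* was lost without Acute-7d replicate 1, without Acute-7d replicate 2, without T_Dysf replicate 1 or with a term for the RESUB libraries, while 5 of the 10 genes passed when only the 12028 genes with a mean of at least 50 were tested, of which 25% passed in either direction.

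Against Effector, *Tap1* and *Psmb8* were lower in T_Dysf, 2 of the 10 genes, where 7.44% of all genes passed in the lower direction and 8.14% in the higher. The median difference of the 10 genes was -0.22, with 4 positive and 6 negative. No gene of the 10 passed with a term for the RESUB libraries, in a fit of these 2 conditions alone, or without any 1 library of Acute-2d, Acute-7d or T_Dysf, and 1 passed without Effector replicate 2.

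**Figure D3:**
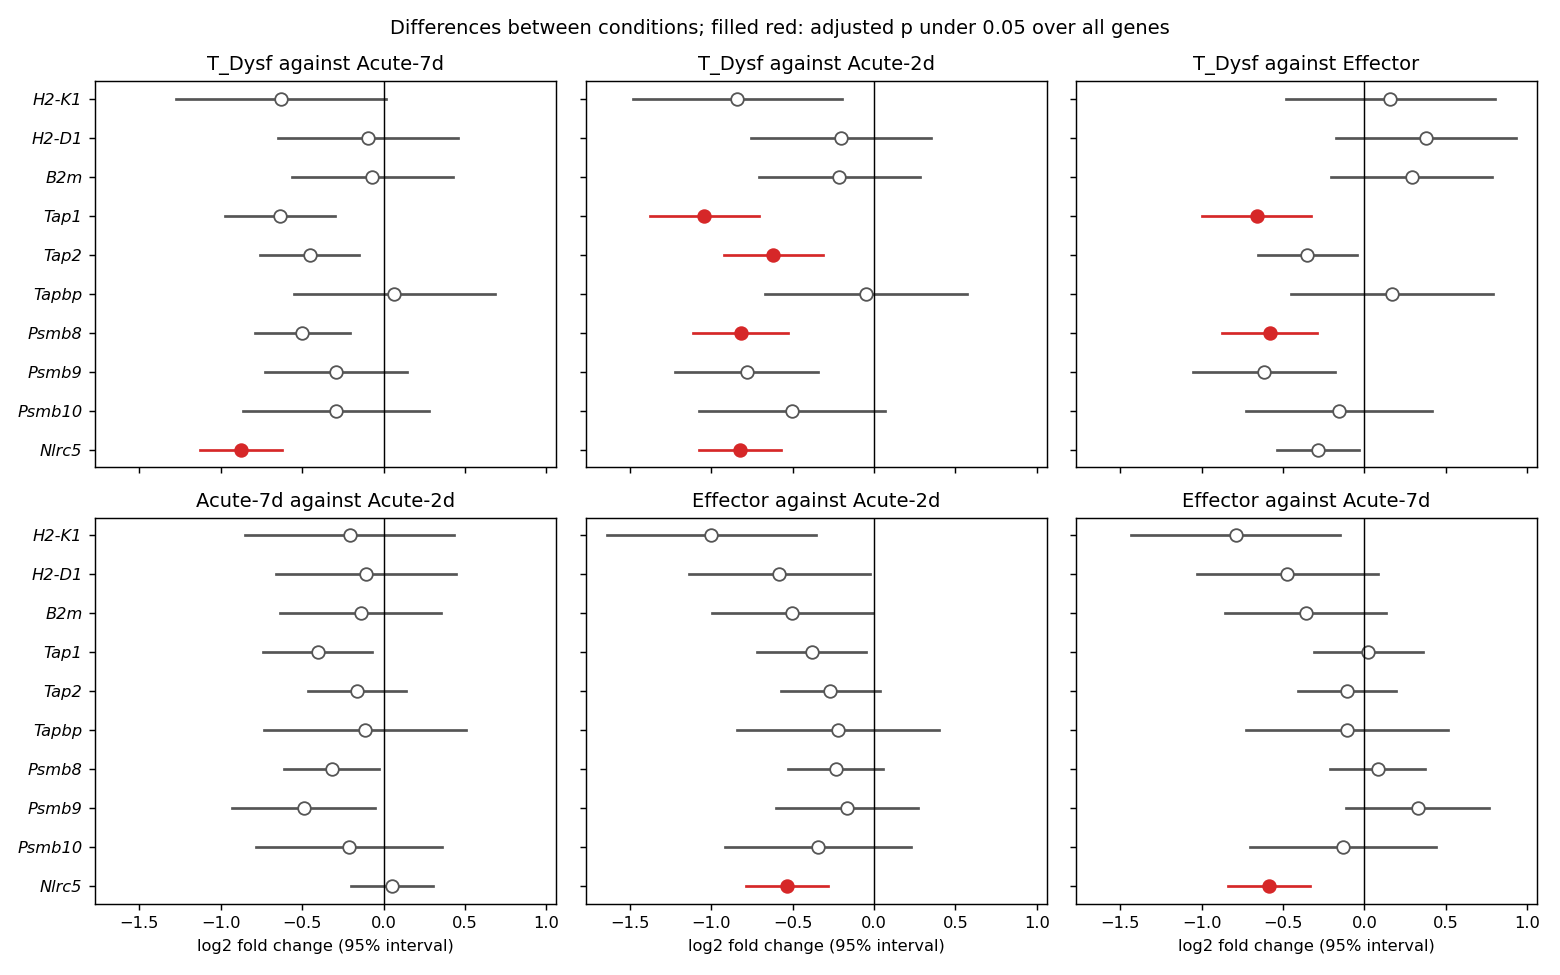
Log2 fold changes of the 10 genes (points) with 95% intervals of limma's fit (lines) in 6 comparisons of 2 libraries against 2; filled red marks an adjusted p under 0.05 over all genes. *Nlrc5* passes in 4 comparisons, *Tap1* and *Psmb8* in 2 each and *Tap2* in 1, all of them lower in the condition named first.

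*H2-K1* encodes one of the classical class I heavy chains of these mice, which presents peptides at the cell surface. It stood at 71388 and 75205 normalized counts in Effector, 136321 and 157617 in Acute-2d, 129026 and 124582 in Acute-7d, and 75944 and 88312 in T_Dysf. Both acute conditions lay above T_Dysf and Effector with no overlap, at a log2 fold change of -0.84 (SE 0.25) for T_Dysf against Acute-2d and -0.63 (SE 0.25) against Acute-7d. Neither difference passed limma's test (adjusted p = 0.105 and 0.197), nor did Effector against Acute-2d (95% interval -1.64 to -0.36 on the log2 scale, adjusted p = 0.0589). T_Dysf and Effector differed by 0.16, with a 95% interval from -0.48 to 0.80, and by -0.29 after quantile normalization.

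*H2-D1* encodes the other classical heavy chain, the one that presents GP33 to the P14 receptor. It stood at 59883 and 56228 in Effector, 82748 and 91111 in Acute-2d, 88895 and 73051 in Acute-7d, and 70776 and 80359 in T_Dysf. T_Dysf overlapped Acute-7d, with a log2 difference of -0.10 and a 95% interval from -0.65 to 0.46. Effector was below every other library, though no comparison of *H2-D1* passed limma's test. In the order of means Acute-2d overlapped Acute-7d and Acute-7d overlapped T_Dysf, while T_Dysf and Effector did not overlap.

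The heavy chains did not keep 1 ratio. *H2-K1* over *H2-D1* was 1.07 and 1.10 in T_Dysf, 1.19 and 1.34 in Effector, 1.65 and 1.73 in Acute-2d, and 1.45 and 1.71 in Acute-7d. The T_Dysf libraries were thus the lowest, below both Effector libraries and below the rested ones. A ratio within a library shows unequal change of the pair and does not say which gene changed.

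*B2m* encodes β2-microglobulin, the light chain of every class I molecule. It stood at 55979 and 59666 in Effector, 83945 and 79827 in Acute-2d, 72120 and 76394 in Acute-7d, and 65343 and 76442 in T_Dysf. T_Dysf overlapped Acute-7d (log2 difference -0.07, 95% interval -0.56 to 0.42), and no comparison of *B2m* passed. *H2-K1* over *B2m* was 1.16 in both T_Dysf libraries, 1.28 and 1.26 in Effector, and between 1.62 and 1.97 in the 4 rested libraries. Per kilobase of exons, *B2m* had the highest mean of the 10 genes in every condition, between 67235 normalized counts per kilobase in Effector and 95216 in Acute-2d, followed by *H2-K1* (44288 to 88803) and *H2-D1* (27619 to 41356).

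*Tap1* encodes one of the 2 chains of the peptide transporter. It stood at 10475 and 13302 in Effector, 14836 and 15945 in Acute-2d, 11638 and 11590 in Acute-7d, and 7259 and 7689 in T_Dysf. Both T_Dysf libraries were below the other 6. *Tap1* fell by 51.4% in T_Dysf against Acute-2d (log2 fold change -1.04, SE 0.13, adjusted p = 0.0130 in limma's test) and fell by 36.7% against Effector (-0.66, SE 0.13, adjusted p = 0.0341). Between T_Dysf and the Acute-7d library without the RESUB prefix the log2 difference was -0.63, and that against both Acute-7d libraries was -0.64.

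*Tap2* encodes the other chain of the transporter. It stood at 8718 and 9730 in Effector, 10761 and 11424 in Acute-2d, 10904 and 9004 in Acute-7d, and 7115 and 7343 in T_Dysf. T_Dysf was again below the other 6 libraries. *Tap2* fell by 34.8% against Acute-2d (log2 fold change -0.62, SE 0.12, adjusted p = 0.0362 in limma's test), and its differences from Acute-7d (-0.45) and Effector (-0.35) did not pass. *Tap1* over *Tap2* was 1.02 and 1.05 in T_Dysf and between 1.07 and 1.40 in the other 6 libraries.

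*Tapbp* encodes tapasin, which bridges the transporter and the class I molecule. It stood at 10264 and 16442 in Effector, 15652 and 14632 in Acute-2d, 13379 and 14588 in Acute-7d, and 13680 and 15640 in T_Dysf. All conditions overlapped T_Dysf, and the log2 differences of T_Dysf were 0.07 from Acute-7d, -0.05 from Acute-2d and 0.17 from Effector. After quantile normalization the value from Acute-2d was 0.09. With an SE of 0.24 the intervals were wide (-0.67 to 0.57 for Acute-2d), and the Effector libraries differed from each other more than any 2 condition means.

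*Psmb8* encodes the chymotrypsin-like subunit of the immunoproteasome. It stood at 12703 and 14470 in Effector, 15065 and 16915 in Acute-2d, 12814 and 12775 in Acute-7d, and 8529 and 9619 in T_Dysf. Both T_Dysf libraries were below the other 6. *Psmb8* fell by 43.3% in T_Dysf against Acute-2d (log2 fold change -0.82, SE 0.11, adjusted p = 0.0164 in limma's test) and fell by 33.2% against Effector (-0.58, SE 0.11, adjusted p = 0.0330). Against Acute-7d the difference was -0.50 and did not pass.

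*Psmb9* encodes the subunit that takes the place of the caspase-like one in the immunoproteasome. It stood at 4283 and 5494 in Effector, 4899 and 6040 in Acute-2d, 3591 and 4167 in Acute-7d, and 3140 and 3183 in T_Dysf. T_Dysf was below the other 6 libraries, and its difference from Acute-2d was -0.78 (SE 0.17) with an adjusted p of 0.0505 in limma's test, just outside the threshold. *Psmb10*, the replacement of the trypsin-like subunit, stood at 2528 and 3943 in Effector, 4013 and 3993 in Acute-2d, 3231 and 3708 in Acute-7d, and 2714 and 2947 in T_Dysf. T_Dysf lay below both acute conditions and inside the range of Effector, and no comparison of *Psmb10* passed.

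The constitutive subunits differed between conditions in another order. *Psmb5*, *Psmb6* and *Psmb7*, which the immunoproteasome subunits replace, were higher in Effector than in Acute-2d (log2 fold changes 1.12, 0.77 and 1.12, adjusted p = 0.0217, 0.0387 and 0.0270 in limma's test), 3 of 3 genes, where 7.94% of all genes passed in the higher direction. They were also higher than in Acute-7d (1.04, 0.79 and 1.16), where 7.7% of all genes passed in that direction. In T_Dysf all 3 lay between Effector and the acute conditions, at 1550 and 1727 normalized counts of *Psmb5*, 1850 and 1884 of *Psmb6*, and 1719 and 2059 of *Psmb7*, and none of their comparisons with T_Dysf passed. With a term for the RESUB libraries, or in a fit of the 2 conditions alone, none of the 3 passed between Effector and either acute condition. None of the 3 passed without Acute-2d replicate 1 or 2 for Acute-2d, without Acute-7d replicate 1 or 2 or Effector replicate 2 for Acute-7d, or without either T_Dysf library for both, and 1 passed without a library of the other acute condition.

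Set against its constitutive counterpart, each immunoproteasome gene had its lowest ratios in T_Dysf and Effector and its highest in Acute-2d. *Psmb8* over *Psmb5* was 5.50 and 5.57 in T_Dysf, 6.47 and 5.44 in Effector, 11.7 and 11.2 in Acute-7d, and 15.7 and 14.8 in Acute-2d. *Psmb9* over *Psmb6* was 1.70 and 1.69 in T_Dysf, 1.89 and 1.77 in Effector, 2.44 and 2.60 in Acute-7d, and 3.29 and 3.71 in Acute-2d. *Psmb10* over *Psmb7* was 1.32 and 1.71 in T_Dysf, 1.16 and 1.26 in Effector, 2.85 and 3.05 in Acute-7d, and 3.21 and 3.45 in Acute-2d. The 4 rested libraries were above the 4 others in all 3 ratios. These are ratios of normalized counts, not of RNA per length or of protein, and they were not tested. Per kilobase of exons, the mean of *Psmb8* was between 5574 in T_Dysf and 9822 in Acute-2d, and that of *Psmb5* between 1171 in Acute-2d and 2572 in Effector.

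**Figure D4:**
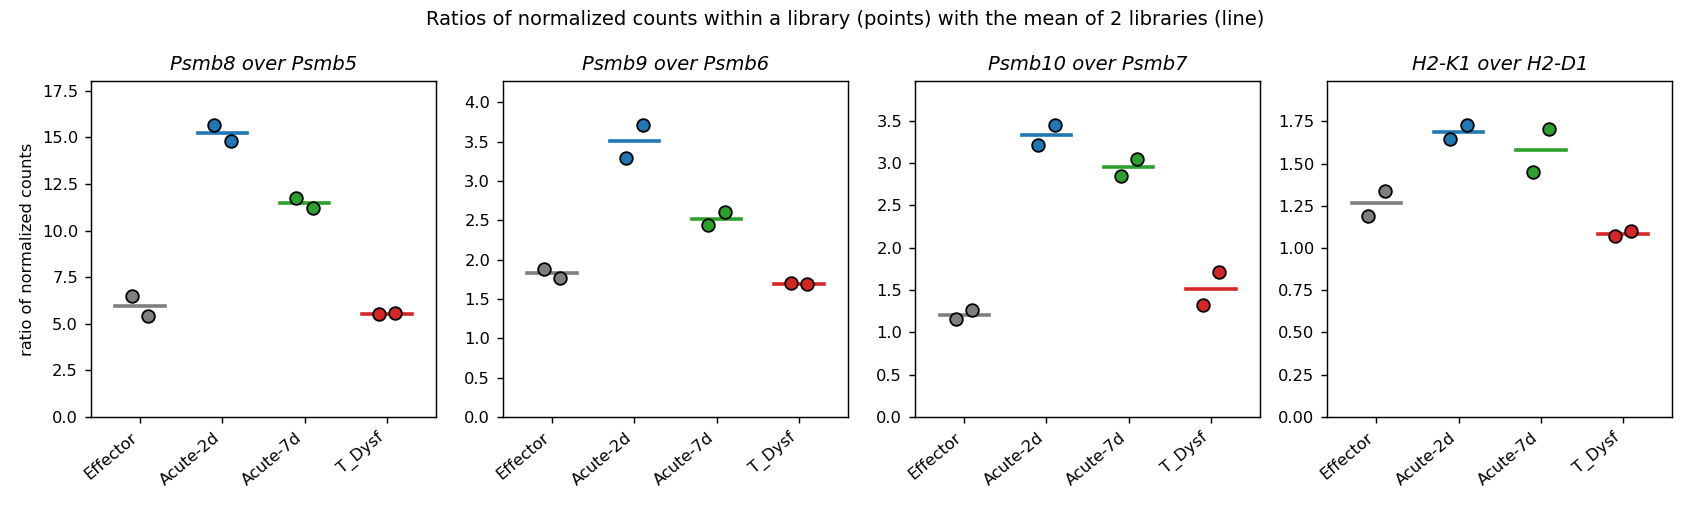
Ratios of normalized counts within each library (points) and their means over 2 libraries (lines) for 3 immunoproteasome genes over the constitutive subunit each replaces, and for *H2-K1* over *H2-D1*; each axis starts at 0. All Acute-2d and Acute-7d libraries lie above all Effector and T_Dysf libraries, with *Psmb8* over *Psmb5* between 11.2 and 15.7 against 5.44 to 6.47.

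*Nlrc5* encodes the class I transactivator. It stood at 7286 and 8486 in Effector, 11036 and 11790 in Acute-2d, 12261 and 11370 in Acute-7d, and 6389 and 6502 in T_Dysf. The acute conditions overlapped each other, Effector lay below both, and T_Dysf lay below Effector. *Nlrc5* fell by 45.4% in T_Dysf against Acute-7d (log2 fold change -0.87, SE 0.10, adjusted p = 0.0128 in limma's test) and fell by 43.5% against Acute-2d (-0.82, adjusted p = 0.0117). It was also lower in Effector than in Acute-2d (-0.54, adjusted p = 0.0296) and Acute-7d (-0.59, adjusted p = 0.0264). Among the 10 genes it was the only one to pass in these 2 comparisons, where 7.79% and 7.16% of all genes passed in the lower direction. T_Dysf and Effector differed by -0.29, which did not pass (adjusted p = 0.120). Within libraries of 1 kind of name the differences were -0.82 for T_Dysf against Acute-7d replicate 2 (no prefix) and -0.64 for Effector against Acute-7d replicate 1 (prefix). The calls of Effector were lost without any 1 library of Acute-2d, Acute-7d or T_Dysf.

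Between Acute-7d and Acute-2d, none of the 10 genes passed limma's test, where 0.169% of all genes did. At an unadjusted p under 0.05, *Tap1* (log2 difference -0.41), *Psmb8* (-0.32) and *Psmb9* (-0.49) were lower in Acute-7d, 3 of the 10, where 4.07% of all genes met this in the lower direction, and none of the 10 were higher (3.24% of all genes). Of the 10 differences 9 were negative, with a median of -0.19, and *Nlrc5* had the one positive value (0.05). The intervals of the other genes were wide, and for *H2-K1* the interval ran from -0.85 to 0.43.

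The further class I genes included 22 listed heavy chain genes, of which 19 were in the table. Many of them encode nonclassical molecules that present limited sets of peptides or none. Against Acute-7d 7 of the 19 were lower and 0 higher in T_Dysf, where 4.42% of all genes were lower, and the leading 4 by size were *H2-Q10* (log2 fold change -1.91), *H2-Q5* (-1.43), *H2-Q4* (-1.41) and *H2-Q7* (-1.32). Against Acute-2d 8 were lower and 0 higher, where 6.01% of all genes were lower, led by *H2-Q10* (-2.09), *H2-Q7* (-1.56), *H2-Q4* (-1.49) and *H2-Q6* (-1.49). *H2-Q7* stood at 27125 and 29374 normalized counts in Effector, 63395 and 64998 in Acute-2d, 51247 and 57837 in Acute-7d, and 20712 and 22848 in T_Dysf. *H2-Q4* stood at 9632 and 10681 in T_Dysf, below every other library (14331 to 30918). Against Effector 3 were lower and 1 higher, where 7.44% of all genes were lower and 8.14% higher, namely *H2-T24* (-1.81), *H2-Q10* (-1.81), *H2-T22* (-0.66) and *Cd1d1* (0.88), the last encoding a lipid-presenting molecule.

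The median log2 difference of the 19 genes was -0.85 against Acute-7d and -1.39 against Acute-2d, beside -0.37 and -0.70 for the 10 genes and 0 over all genes. Only 13 of the 19 had a mean of at least 50, as did all of the 10 genes. The median of the 19 thus includes genes with few reads. *H2-Q5* and *H2-T10* are among those of the 19 genes that are annotated as polymorphic pseudogenes. *H2-Q1* was listed at 0 in T_Dysf replicate 1 and at 119 in replicate 2, so reads of this family may be split between copies. Against Acute-7d the 7 calls were 2 without Acute-7d replicate 1, 2 without Acute-7d replicate 2 and 1 without T_Dysf replicate 1, and 2 with a term for the RESUB libraries. Against Acute-2d the 8 calls were 3 without Acute-2d replicate 1, 4 without Acute-2d replicate 2 and 4 without T_Dysf replicate 1.

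**Figure D5:**
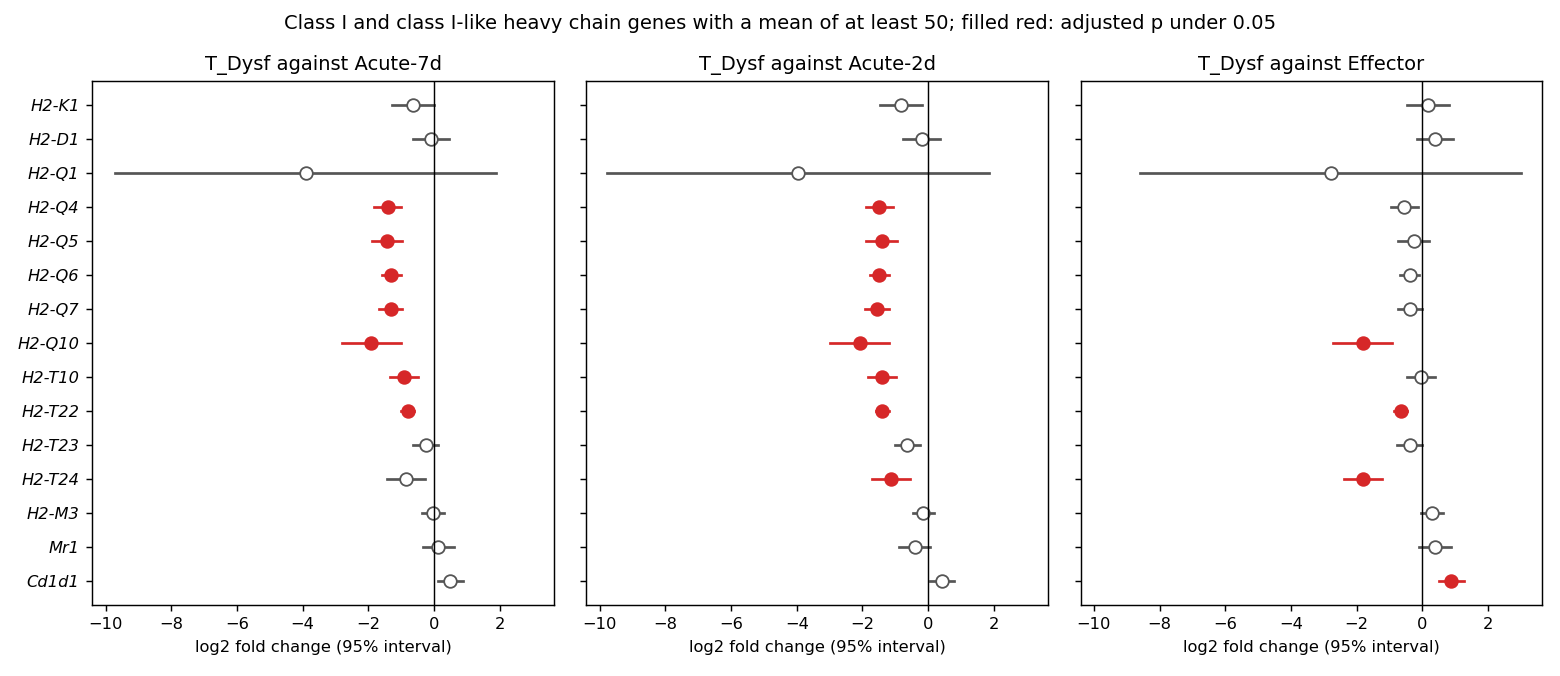
Log2 fold changes (points) with 95% intervals of limma's fit (lines) for *H2-K1*, *H2-D1* and the 13 other class I and class I-like heavy chain genes with a mean of at least 50, in 3 comparisons of T_Dysf; filled red marks an adjusted p under 0.05 over all genes. The H2-Q genes from *H2-Q4* to *H2-Q10* lie between -1.31 and -2.09 against both acute conditions, where *H2-K1* and *H2-D1* do not pass.

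Proteasome activators feed peptides to the same pathway. Of 6 genes for proteasome regulators and assembly none passed against Acute-7d, where 9.21% of all genes passed in either direction. Against Acute-2d 1 was lower (11.9% of all genes in either direction). That was *Psme2*, a subunit of the interferon-inducible activator PA28 (-0.50, adjusted p = 0.0375 in limma's test). *Psme2* stood at 345 and 360 normalized counts in T_Dysf, against 761 and 894 in Effector (-1.22, adjusted p = 0.00485), 477 and 525 in Acute-2d, and 450.5 and 453 in Acute-7d. Against Effector 2 of the 6 were lower, *Psme2* and *Psmf1* (-0.44), where 15.6% of all genes passed in either direction. By its name *Psmf1* encodes a proteasome inhibitor, not an activator. Of 11 genes for peptide loading and trimming, 1 was higher against Acute-7d, the peptidase gene *Tpp2* (0.90), 1 was lower against Acute-2d, the aminopeptidase gene *Npepps* (-0.78), and 0 passed against Effector, so that these counts of 1, 1 and 0 lay near or below the shares of all genes.

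Of 22 genes for regulators of class I, which include interferon receptors, Janus kinases and the factors that bind the X and Y boxes, 2 were lower and 1 higher in T_Dysf against Acute-7d, where 4.42% of all genes were lower and 4.79% higher. *Irf1*, an interferon-induced activator of class I genes, stood at 2332 and 4004 in Effector, 25031 and 23400 in Acute-2d, 16637 and 29014 in Acute-7d, and between 4570 and 4888 in T_Dysf. T_Dysf and Effector were below all rested libraries, with a log2 fold change of -2.22 for T_Dysf against Acute-7d (adjusted p = 0.0310 in limma's test) and -2.36 against Acute-2d. *Ifngr1*, a chain of the interferon-γ receptor, stood at 6002 and 6304 in T_Dysf, 9067 and 10321 in Effector, and between 14749 and 16785 in the rested libraries (-1.27 against Acute-7d, -1.44 against Acute-2d and -0.65 against Effector, all of which passed). *Irf8*, a factor of activated lymphocytes and myeloid cells, was higher in T_Dysf than in Acute-7d (1.83, adjusted p = 0.0494).

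Against Acute-2d 2 of the 22 were lower in T_Dysf and 1 higher, where 6.01% of all genes were lower and 5.85% higher. The higher one was *Nfyc*, a subunit of the Y box factor (0.56), and this count of 1 lay near the share of all genes. Against Effector 4 of the 22 were higher in T_Dysf, *Rfxank* (0.71), *Rela* (0.63), *Jak1* (0.61) and *Irf2* (0.36), and *Ifngr1* was lower, where 8.14% of all genes were higher and 7.44% lower. In Effector 9 were lower and 1 higher than in Acute-2d, where 7.79% of all genes were lower and 7.94% higher. They were led by *Ifngr2* (-3.45) and *Irf1* (-2.98), followed by *Jak2* (-0.91) and *Jak1* (-0.82). *Ifngr2* stood at only 12.8 and 57.2 normalized counts in Effector, against 283 and 335 in Acute-2d, so its Effector level was low and differed widely between replicates.

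Class II molecules present peptides to CD4 T cells, and mouse T cells make little of them. Of 12 listed genes 3 were lower and 1 higher in T_Dysf against Acute-7d, where 4.42% of all genes were lower and 4.79% higher. Against Acute-2d 5 of the 12 were lower and 0 higher (6.01% and 5.85% of all genes), and the median log2 difference of the 12 was -1.94. Replicates 1 and 2 of Acute-2d differed widely in *Cd74* (2163 and 521), *H2-Aa* (549 and 172) and *H2-Eb1* (566 and 176). They were closer in *H2-Ab1* (1731 and 1557) and *H2-DMa* (1538 and 1386). *H2-Ob*, a chain of a peptide-exchange regulator, stood at 241 and 310 normalized counts in Acute-7d, 808 and 1034 in Acute-2d, 156 and 286 in Effector, and 6.04 and 6.23 in T_Dysf, so that its T_Dysf level was a few reads. *H2-Ab1* (-1.77) and *H2-DMa* (-0.73) were also lower, while *Ciita*, the class II transactivator and a relative of *Nlrc5*, was higher in T_Dysf (2.11, adjusted p = 0.0270 in limma's test). *Ciita* stood at 75.6 and 80.3 in T_Dysf against 13.4 and 22.2 in Acute-7d and 48.6 and 53.7 in Acute-2d. *Ciita* and *Nlrc5* thus passed in opposite directions between T_Dysf and Acute-7d.

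The genes whose pattern was most like that of the 10 genes were found by Pearson's r over the 8 libraries with the mean of their log2 values, among 12018 other genes with a mean of at least 50. These were *Eef1d* (0.993), *Igtp* (0.983), *Tex261* (0.982), *Zfp60* (0.981) and *Cep68* (0.980). *Igtp* encodes an interferon-γ-induced GTPase and stood at 4786 and 9651 in Effector, 15495 and 15160 in Acute-2d, 10885 and 10414 in Acute-7d, and 3811 and 4325 in T_Dysf. For *Nlrc5* alone they were *Dyrk2* (0.993), *Axin1* (0.993), *Atp10d* (0.991), *Scml4* (0.988) and *Utrn* (0.987). These are the leading values of a search, the libraries fall into 4 conditions, and the correlations were not tested.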

How the data were processed

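RNA-Seq of P14 CD8+ T cells was analysed in 4 conditions with 2 libraries each. In the authors' pipeline STAR was the aligner, mm10 the genome, RefSeq the annotation and Partek Flow the software for quantification, and the authors normalized with DESeq2. The deposited values are a signal, estimated reads per gene over the median-ratio size factor of that library. Count models were not fitted: below 1000 reads, only 51.0% to 74.9% of values a library came within 0.01 of a whole multiple of the worth of 1 read, taken as its most frequent value. The table was used as deposited, with no filter. The total over that worth gave the depth.

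Tests used limma 3.58.1 (lmFit and eBayes with trend) in R 4.3.3 on log2(normalized count + 1), with 4 group means, no covariate, 4 residual degrees of freedom and two-sided p-values. Per-gene fold changes use a pseudocount of 1. The 10 genes and the other lists were chosen with earlier results of these data known. Beyond the 10 genes, at most 4 genes a list are named, those with the largest change among genes past the threshold, and all 3 constitutive subunits. *Itgax*, *H2-Q1*, *H2-M3*, *Cd74*, *H2-Aa*, *H2-Eb1*, the CD8 T cell markers, *Cd79b*, *Ncr1* and *Klre1* were named after their values were seen. Genes most like the 10 were the 5 with the highest r. In simulated data of the same size for T_Dysf against Acute-7d, on 24303 genes, 34 of 100 genes changed 2-fold and 83 of 100 changed 8-fold were called in the right direction, and 7 unchanged genes were called. Changes of 2-fold and above can therefore be missed, and smaller ones were not simulated.

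Promoters are from RefSeq (GRCm38.p6) and gene positions and exon lengths from GENCODE vM21. Motifs were searched on both strands with Python 3.11.15, pandas 2.3.3 and numpy 2.4.6, and plots were made with matplotlib 3.10.9. Alternatives were a pseudocount of 10, genes with a mean of at least 50, a term for the RESUB libraries, equal totals, leaving out each library in turn, a block for the replicate number, quantile normalization, and a fit that held only the 2 groups at issue. With 1 library left in a condition, that library is assumed to vary like the others. Their use on 2 of the other lists was added after the data were seen. With the term for the RESUB libraries, 1.83% of all genes passed for T_Dysf against Effector, against 15.6% without it. For Effector against Acute-2d these shares were 1.63% and 15.7%. Calls lost with that term are therefore not particular to the 10 genes.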

Additional observations from a re-analysis of the deposited data

How the results depend on the processing

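In each of the 15 alternatives tried, the genes of the 10 that passed were lower in the condition named first. Of the 10 genes, the number passing for T_Dysf against Acute-7d (1) was 2 with a pseudocount of 10 or in the fit of the 2 groups, 3 with equal totals or quantile normalization, 5 with a mean of at least 50, 0 with the term for the RESUB libraries, and 0 to 2 with 1 library left out. For T_Dysf against Acute-2d (4) it was 0 to 6 with 1 library left out. For T_Dysf against Effector (2) it was 4 with quantile normalization, 0 in the fit of the 2 groups and with the RESUB term, and 0 to 2 with 1 library left out. For Effector against Acute-2d (1) it was 4 with a mean of at least 50, 2 with equal totals, 0 in the fit of the 2 groups and with the RESUB term, and 0 to 2 with 1 library left out. For Effector against Acute-7d (1) it was 2 with a mean of at least 50, 0 in the fit of the 2 groups and with the RESUB term, and 0 to 1 with 1 library left out. The F test over the 4 conditions (3) passed for 6 with a mean of at least 50, 1 with the RESUB term, and 0 to 3 with 1 library left out. A mean of at least 50 removes genes from the adjustment, and 25% of the 12028 genes left passed for T_Dysf against Acute-7d; the fit of the 2 groups and the fits without 1 library rest on fewer samples; the cause of the other changes was not tested.

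Of the other heavy chains, the number passing for T_Dysf against Acute-7d (7) was 3 in the fit of the 2 groups, 2 with the RESUB term and 1 to 9 with 1 library left out, and against Acute-2d (8) it was 3 to 10 with 1 library left out. Of the constitutive subunits (3), 0 passed in the fit of the 2 groups and with the RESUB term for Effector against Acute-2d and against Acute-7d, and 0 to 3 with 1 library left out in each.

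The replicate numbers were not taken as pairs: the correlation of the replicate differences between 2 conditions was between -0.199 and 0.197 over 6 pairs of conditions, with 2 of them over 0.1. With the replicate number as a block, the call of *Nlrc5* for Effector against Acute-2d was lost (0 of the 10 genes), and the number passing for T_Dysf was 1 against Acute-7d, 4 against Acute-2d and 3 against Effector.

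Differences that did not pass changed sign in these settings. With quantile normalization *H2-K1* was -0.29 for T_Dysf against Effector, and *Tapbp* was 0.092 for T_Dysf against Acute-2d and 0.0023 for Effector against Acute-7d. With the RESUB term *H2-D1* was 0.046 for T_Dysf against Acute-7d, *Psmb9* 0.050 for Effector against Acute-2d and *Nlrc5* -0.0046 for Acute-7d against Acute-2d. With 1 library left out, the ranges for T_Dysf against Acute-7d were -0.24 to 0.046 for *H2-D1*, -0.18 to 0.042 for *B2m* and -0.030 to 0.16 for *Tapbp*. The range was -0.15 to 0.047 for *Tapbp* in T_Dysf against Acute-2d. Those for T_Dysf against Effector were -0.17 to 0.51 for *Tapbp* and -0.48 to 0.16 for *Psmb10*. Those for Acute-7d against Acute-2d were -0.25 to 0.034 for *H2-D1* and -0.0046 to 0.10 for *Nlrc5*. Those for Effector against Acute-2d were -0.56 to 0.12 for *Tapbp* and -0.34 to 0.014 for *Psmb9*. Those for Effector against Acute-7d were -0.15 to 0.20 for *Tap1*, -0.24 to 0.033 for *Tap2*, -0.44 to 0.24 for *Tapbp*, -0.010 to 0.18 for *Psmb8* and -0.45 to 0.19 for *Psmb10*. Over single genes, 794 of the other values kept their direction and side of the threshold, 32 crossed into it and 53 out of it.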
